A study of Mus musculus with 6 samples.

Results

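Genes of tight junctions, adherens junctions and desmosomes were examined in TKPTS cells, a mouse kidney proximal tubule line, 24 h after transfection. The genes were chosen by name: every claudin (Cldn), cadherin (Cdh), desmoglein (Dsg) and desmocollin (Dsc) in the expression table, the plakophilins Pkp1 to Pkp4, the zonula occludens (Tjp) genes, and Ocln, Marveld2, F11r, Dsp, Jup, Epcam, Ctnna1 and Ctnnd1. This gave 63 of the 29595 genes listed: 19 claudins, 6 other tight junction genes, Epcam, 22 cadherins and catenins, and 15 desmosome genes. The table lists only genes with at least 1 count in some library, so members of these families with no count anywhere are not among the 63.

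Several kinds of junction hold neighbouring tubule cells together. Tight junctions lie at the top of the lateral membrane, where strands of claudins and occludin control what passes between the cells and the zonula occludens proteins tie the strands to actin. Below them, adherens junctions are built from cadherins that bind their like on the next cell and reach actin through catenins, and desmosomes use their own cadherins, plakoglobin, plakophilins and desmoplakin to hold on to keratin filaments. In the kidney, the set of claudins differs from segment to segment and sets how leaky each segment is, and a shift from epithelial cadherin towards neural cadherin is a common readout of tubule cells losing epithelial character.

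The Hnf3a group (n = 3) received the plasmid pcDNA3.1-Hnf3a-Flag, which encodes Flag-tagged HNF3α, a forkhead transcription factor whose mouse gene is Foxa1. The pcDNA group (n = 3) received pcDNA3.1-Flag without the insert, and no TGF-β1 or other agent is named for either group. The transfection was transient, all libraries come from the same line, and the share of cells that took up the plasmid is not given in the sources used here. Nor do the sources say that replicates were separate cultures, so p-values measure only the spread between these samples. Foxa1 stood at 304.6 ± 26.2 FPKM with the Hnf3a plasmid against 9.66 ± 0.259 FPKM with the empty one (SD, n = 3 each; log2 fold change 4.97, edgeR adjusted p 5.988e-10), a sum over plasmid and chromosomal transcripts. FPKM counts the fragments of a gene per kilobase of its transcript, relative to all fragments of the library.

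The total estimated count per library was between 60473818 and 71154667. About 4 estimated counts correspond to 1 sequenced fragment, so 12 counts, or about 3 fragments, were taken as the floor of detection. That floor equals 0.169 to 0.198 CPM, counts scaled to the size of the library, and it covers counting error only. Of 16 proximal tubule markers 13 were in the table, and 10 or 11 were above the floor in each library. These include Cdh6 and Cdh16, which are also among the 63 genes. The kidney transcription factor Pax8 had 11256 to 13855 counts and Aqp1 162 to 235. Others were sparse, with 17 to 53 counts for Lrp2, 27 to 58 for Cubn and 4 to 25 for Hnf4a. The glucose transporters Slc5a1 and Slc5a2 were at or under the floor in all 6. Hnf3a replicates 2 and 3 stood apart in genes of other cell types. The summed level of 8 fibroblast markers was 65.0 and 81.2 CPM in them against 0.482 to 1.52 CPM in the other libraries, 10 of 11 macrophage markers were above the floor in each against 2 to 4, and 4 muscle markers summed to 5.59 and 6.81 CPM against 0.307 to 0.665 CPM. These sums leave out the cadherins counted among the 63 genes. Each result below is therefore also given without both of these libraries wherever that setting ended its call.

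The first question was which junction genes the line expressed. Claudin 4 led at a mean of 212.8 FPKM over the 6 libraries (202.8 to 221.7), and no other junction gene came within its range. Epithelial cadherin (Cdh1) followed at 109.5 FPKM, then Epcam, an adhesion protein that binds claudins, at 104.0 FPKM and Cldn1 at 103.8 FPKM, and the ranges of these 3 neighbours overlapped in this order. Cldn7 (82.9 FPKM), Tjp1 (82.7 FPKM) and the actin-linking α-catenin gene Ctnna1 (76.6 FPKM) came next and also overlapped. Cldn3 stood apart from its neighbours at 63.0 FPKM, as did F11r, which codes for a junctional adhesion molecule, at 48.7 FPKM.

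Across the 63 genes, 21 had a mean of at least 10 FPKM, 31 of at least 1 FPKM and 32 of less than 1 FPKM. With counts divided by the longest annotated transcript in place of the deposited FPKM, 24 genes passed a level of 10 and 9 of the first 10 were the same. Cldn4 still led, but the order behind it changed. Ctnna1 then held rank 2, Cldn1 rank 3, Cldn7 rank 4, Cdh1 rank 5 and Epcam rank 6. The order given above thus holds for the deposited FPKM only. Within the claudins, Cldn4 alone took 41.0% of the summed FPKM, and the first 4 (Cldn4, Cldn1, Cldn7 and Cldn3) took 89.0%. The claudins typical of the proximal tubule were near the floor: Cldn2, a cation and water pore, had 10, 17 and 0 counts in the Hnf3a libraries against 14, 11 and 6 in the pcDNA libraries, and Cldn10 had at most 4 counts in any library. The line thus carried abundant transcripts of claudins 4, 1, 7 and 3 and hardly any of claudins 2 and 10.

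**Figure D1:**
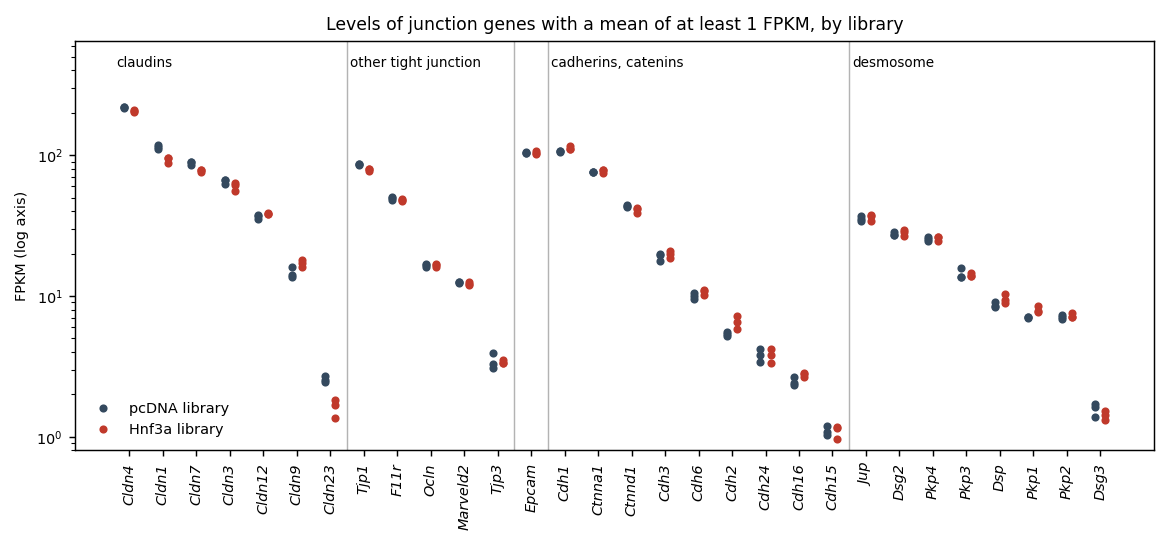
Levels of junction genes with a mean of at least 1 FPKM in each of the 6 libraries, in FPKM on a log axis, ordered by level within each junction type, with Epcam on its own between the tight junction genes and the cadherins. Each point is 1 library (dark blue, pcDNA; red, Hnf3a), and for most genes the points of both groups lie close together at a level that spans from 212.8 FPKM for Cldn4 to 1.11 FPKM for Cdh15.

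Transcripts of desmosomal plaque genes were detected beside few desmocollin transcripts. Plakoglobin (Jup), shared by desmosomes and adherens junctions, had a mean of 35.9 FPKM, the desmosomal cadherin Dsg2 27.99 FPKM, Pkp4 25.5 FPKM, Pkp3 14.3 FPKM and desmoplakin (Dsp) 9.09 FPKM. Dsg2 had between 15242 and 19287 counts per library. Its usual partners, the desmocollins, were far lower: Dsc2 had 19, 39 and 10 counts in the Hnf3a libraries against 17, 40 and 47 in the pcDNA libraries, and Dsc1 had at most 8. Dsc3 was at 0 in Hnf3a replicate 1 and in all pcDNA libraries and at 13 and 26 counts in Hnf3a replicates 2 and 3, the libraries with added fibroblast, macrophage and muscle transcripts. Of 10 stratified epithelium markers, Dsc3 included, 8 and 9 were above the floor in these libraries against 5 or 6 in each other library. Krt5, also on that list, had 146 and 100 counts there against 0 to 17.

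In all, 39 of the 63 genes were above the floor in every library, 11 in some and 13 in none. The 13 were Cldn10, Cldn11, Cldn16, Cldn24, Cldn34c2, Cdh4, Cdh7, Cdh8, Cdh12, Cdh18, Cdh19, Dsc1 and Dsg1c, and they held between 0 and 12 counts. Cdh23, a cadherin of hair cell tip links, was the one gene above the floor in all libraries of 1 group and in none of the other, with 17, 20 and 19 counts against 0, 11 and 6, and its difference did not pass the test (edgeR adjusted p 0.402).

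The second question was which of these genes differed between the groups. The filter on low counts kept 47 of the 63, and 6 differed at an adjusted p under 0.05: Cldn1, Cldn7, Cldn23, Tjp1 and Cdh5 were lower in the Hnf3a group and Cdh2 was higher. Over all 17824 genes tested, 3.17% differed (2.13% lower and 1.04% higher), and among those with a mean of at least 10 FPKM the share was 5.09%. By comparison, 3 of the 21 junction genes of at least 10 FPKM differed, all of them lower. Of the 253 genes of that level that differed over the whole table, 198 were lower and 55 higher. The median log2 fold change was 0.0007 over the 47 genes and 0.0008 over all genes tested, with 24 junction genes above 0 and 23 below. The groups did not overlap in CPM for 7 junction genes that were lower and 5 that were higher, where 9.81% and 9.12% of all tested genes did so. As these are whole cultures, fewer cells that express a gene and less RNA per cell cannot be told apart.

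**Figure D2:**
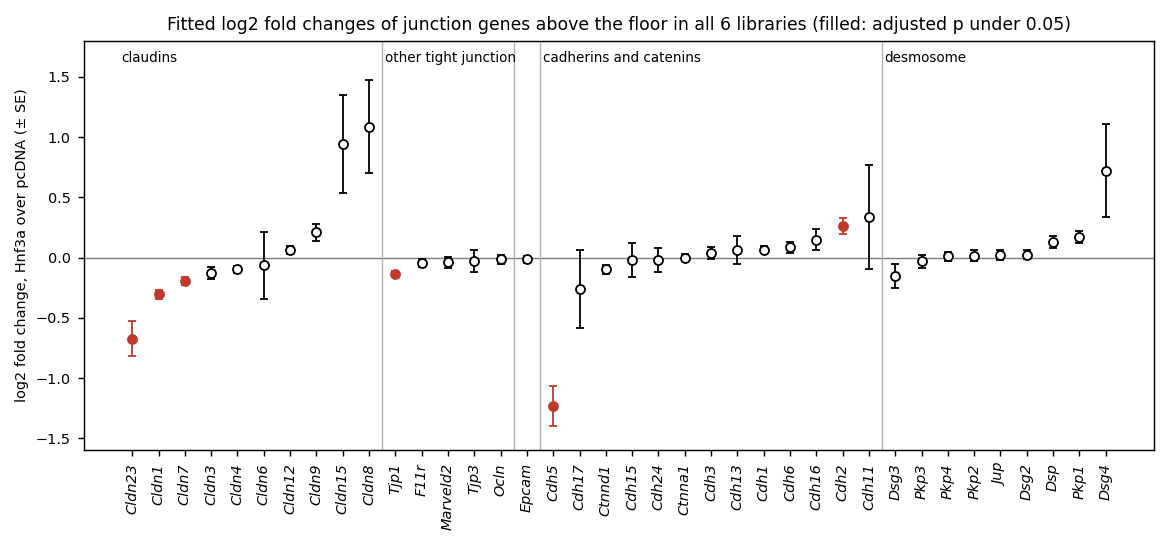
Fitted log2 fold change of Hnf3a over pcDNA with its standard error (bars) for junction genes above the floor in all 6 libraries, ordered within each junction type, with Epcam on its own. Filled red points are the 6 genes with an adjusted p under 0.05, of which Cdh2 alone lies above 0, and the genes with long bars are the sparsely counted ones.

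Claudins held 3 of the 6 differences. Of 13 claudins tested, 3 fell, none rose, and the other 10 did not pass the test. Of all tested genes, 2.13% were called lower and 1.04% higher. The median over the 13 was -0.10 on the log2 scale, with 8 below 0 and 5 above. The summed FPKM of all claudins was 497.0, 505.7 and 486.3 in the Hnf3a libraries against 546.1, 542.1 and 539.9 in the pcDNA libraries, so that the groups did not overlap.

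Cldn1 (ENSMUSG00000022512; chromosome 16, 26356642 to 26371841 in GRCm38, minus strand) encodes a sealing claudin that narrows the path between cells. Its level was 95.6, 96.0 and 88.2 FPKM in the Hnf3a libraries and 117.9, 115.0 and 110.2 FPKM in the pcDNA libraries. The lowest pcDNA library was above the highest Hnf3a library. The means were 93.2 ± 4.42 and 114.4 ± 3.88 FPKM (SD, n = 3 each), and the log2 fold change was -0.30 (standard error 0.037, edgeR adjusted p 0.000354), so that Cldn1 fell by 18.9%. It kept its call in 17 of 17 alternative fits, with adjusted p-values up to 0.0289.

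Cldn7 (ENSMUSG00000018569; chromosome 11, 69964779 to 69967885, plus strand), a claudin of the basolateral membrane that partners Epcam, was at 75.4, 78.8 and 78.7 FPKM with the Hnf3a plasmid and 89.98, 85.5 and 89.0 FPKM without the insert. The groups did not overlap. Cldn7 fell by 12.5%, a log2 fold change of -0.19, standard error 0.034 (77.6 ± 1.91 against 88.2 ± 2.34 FPKM, SD, n = 3 each; edgeR adjusted p 0.00556). Without pcDNA replicate 1 its adjusted p was 0.0553, and the call held in the other 16 alternatives.

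Cldn23 (ENSMUSG00000055976; chromosome 8, 35824712 to 35826559, minus strand) was a low gene of 1 annotated exon, with 227, 198 and 250 counts in the Hnf3a libraries against 317, 369 and 333 in the pcDNA libraries. In FPKM this was 1.624 ± 0.25 against 2.57 ± 0.127 (SD, n = 3 each), and every Hnf3a library was below every pcDNA library. Cldn23 fell by 37.2% (log2 fold change -0.67, standard error 0.15, edgeR adjusted p 0.022). The call held in 9 of 17 alternatives. Leaving out any of Hnf3a replicate 2 and pcDNA replicates 1, 2 and 3 ended it (adjusted p 0.111, 0.0904, 0.129 and 0.0681), as did leaving out Hnf3a replicates 2 and 3 together (adjusted p 0.168, with a log2 fold change of -0.61).

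Cldn4, the most abundant claudin and a sealing claudin of the distal nephron, lies on chromosome 5 from 134945119 to 134946934 (minus strand). Its level was 202.8, 210.3 and 205.5 FPKM against 216.2, 221.7 and 220.4 FPKM. The groups did not overlap, yet the difference did not pass the test, with a log2 fold change of -0.10, a standard error of 0.028 and an edgeR adjusted p of 0.0836. The Wald test of DESeq2 gave an adjusted p of 0.0165. The other claudins above 10 FPKM had log2 fold changes of -0.13 (Cldn3, edgeR adjusted p 0.25), 0.06 (Cldn12, adjusted p 0.483) and 0.21 (Cldn9, adjusted p 0.181), none past the threshold. Cldn8, at 24 to 125 counts, had the highest claudin value at 1.09 with an adjusted p of 0.203.

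**Figure D3:**
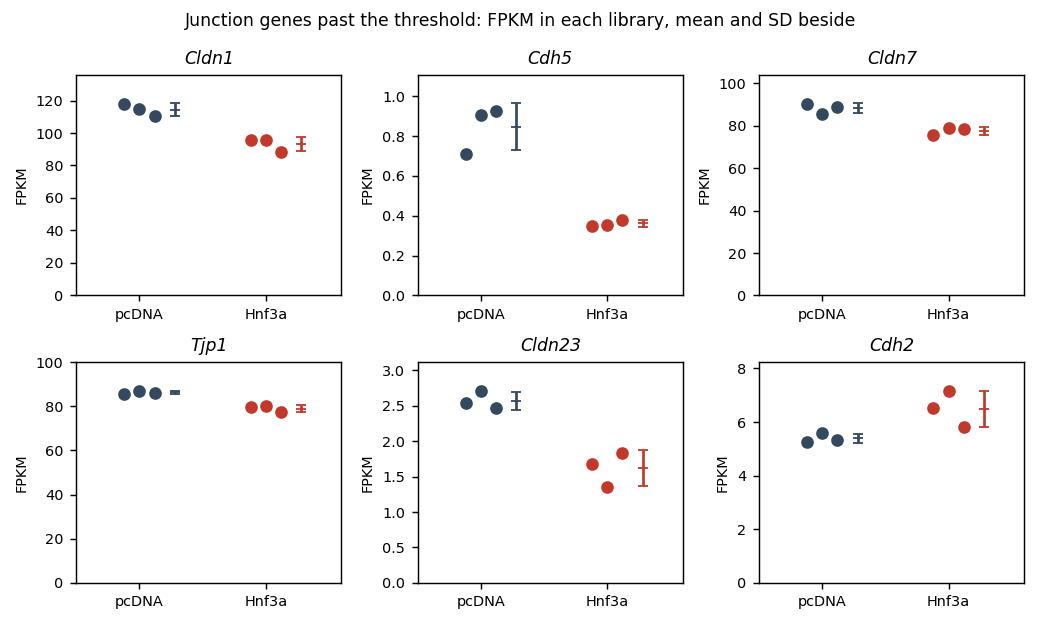
FPKM in each library (points; dark blue, pcDNA; red, Hnf3a) with the mean and SD of each group beside them, for the 6 junction genes with an adjusted p under 0.05, each panel on its own linear axis from 0. The groups do not overlap in any of the 6 panels, and the gap is wide beside the level for Cdh5 (0.362 against 0.846 FPKM) and narrow for Tjp1 (79.0 against 86.3 FPKM).

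Of the 6 other tight junction genes, 1 fell (2.13% of all tested genes were called lower) and 5 did not pass the test. Tjp1 (ENSMUSG00000030516; chromosome 7, 65296165 to 65527696, minus strand) encodes the zonula occludens scaffold that links claudins to actin. It was at 79.5, 80.1 and 77.3 FPKM in the Hnf3a libraries and 85.7, 87.1 and 86.2 FPKM in the pcDNA libraries, with no overlap. Tjp1 fell by 9.05%, a log2 fold change of -0.14, standard error 0.026 (79.0 ± 1.44 against 86.3 ± 0.729 FPKM, SD, n = 3 each; edgeR adjusted p 0.00989). The annotated genes Gm44794 and Gm44792 overlap it on the same strand, and reads of overlapping genes may be split between them. Its call held in 9 of 17 alternatives and was lost without Hnf3a replicate 2 (adjusted p 0.0683), without pcDNA replicate 1, 2 or 3 (adjusted p 0.0626, 0.0991 and 0.055), and without Hnf3a replicates 2 and 3 together (adjusted p 0.0627, with a log2 fold change of -0.12).

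Occludin (Ocln), the other strand protein, was at 16.9, 16.6 and 16.0 FPKM against 16.2, 16.6 and 17.0 FPKM, and the groups overlapped (log2 fold change -0.015, standard error 0.038, edgeR adjusted p 0.93). F11r was at 48.3, 47.6 and 48.6 FPKM against 50.2, 49.8 and 47.9 FPKM (log2 fold change -0.04, standard error 0.034, adjusted p 0.687). Tjp3 and Marveld2, the latter a protein of 3-cell corners, had log2 fold changes of -0.03 and -0.04. Epcam was at 102.1, 103.1 and 106.4 FPKM against 105.1, 103.1 and 104.5 FPKM, with a log2 fold change of -0.013, a standard error of 0.03 and an adjusted p of 0.919. For these genes no difference was detectable in these 6 libraries.

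Among cadherins and catenins, 1 rose, 1 fell and 14 of 16 did not pass the test, beside 1.04% of all tested genes called higher and 2.13% lower. The one that rose was neural cadherin, Cdh2 (ENSMUSG00000024304; chromosome 18, 16588877 to 16809246, minus strand), the classical cadherin of mesenchymal cells that proximal tubule cells also carry. Its level was 6.52, 7.16 and 5.81 FPKM in the Hnf3a libraries and 5.24, 5.59 and 5.34 FPKM in the pcDNA libraries. The groups did not overlap, but Hnf3a replicate 3 lay close to pcDNA replicate 2. Cdh2 was 19.8% higher (6.49 ± 0.676 against 5.39 ± 0.182 FPKM, SD, n = 3 each), with a log2 fold change of 0.26, a standard error of 0.064 and an edgeR adjusted p of 0.0468. This was the call nearest to the threshold, and it held in 8 of 17 alternatives. It was lost without Hnf3a replicate 1 or 2 (adjusted p 0.102 and 0.228), without pcDNA replicate 1, 2 or 3 (adjusted p 0.214, 0.124 and 0.166), and without Hnf3a replicates 2 and 3 together (adjusted p 0.0567, log2 fold change 0.27).

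Epithelial cadherin, Cdh1 (ENSMUSG00000000303; chromosome 8, 106603351 to 106670246, plus strand), was at 116.4, 110.4 and 110.0 FPKM against 106.6, 107.6 and 106.0 FPKM. All Hnf3a libraries were above all pcDNA libraries, and the difference did not pass the test (112.3 ± 3.56 against 106.7 ± 0.793 FPKM, SD, n = 3 each; log2 fold change 0.07, standard error 0.03, edgeR adjusted p 0.375). In FPKM, Cdh2 amounted to 5.60%, 6.48% and 5.28% of Cdh1 in the Hnf3a libraries and to 4.91%, 5.20% and 5.04% of it in the pcDNA libraries. The mean log2 ratio was higher by 0.19 in the Hnf3a group (two-sided exact permutation p 0.1 over the 6 libraries, the smallest that 3 against 3 can give). The difference was 0.11 without Hnf3a replicate 2 and 0.26 without Hnf3a replicate 3, the libraries with fibroblast transcripts. Without Hnf3a replicate 1 it was 0.21. Epithelial cadherin thus remained the prevailing classical cadherin in all 6 libraries.

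Cdh5 (ENSMUSG00000031871; chromosome 8, 104101625 to 104144511, plus strand), the vascular endothelial cadherin, had the largest difference of the 6 on the log2 scale. It had 107, 119 and 118 counts in the Hnf3a libraries against 202, 279 and 284 in the pcDNA libraries, far from overlap though low in every library. The mean was 0.362 ± 0.0162 against 0.846 ± 0.118 FPKM (SD, n = 3 each), a log2 fold change of -1.23, standard error 0.17, so that Cdh5 fell by 57.4% (edgeR adjusted p 0.000821). It was called in all 16 alternatives in which it was tested, with adjusted p-values up to 0.0357. The antisense gene Gm29682 overlaps it, as Gm15485 does Cdh2 and Gm44795 does Tjp1. The library kit marked strand, but the use of strand in counting is not given in the sources used here.

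Because Cdh5 marks endothelium, other endothelial genes were read beside it. The summed level of the 11 other listed markers in the table was 48.7, 43.6 and 43.0 CPM in the Hnf3a libraries and 47.8, 47.6 and 46.2 CPM in the pcDNA libraries, most of it from Flt1, Ptprb and Egfl7. Of the listed markers, Emcn, Esam and Tie1 were at or under the floor in all 6 libraries. Pecam1 had between 5 and 39 counts, and Egfl7 between 399 and 513. Of the 9 markers tested in edgeR, Cdh5 alone was called lower and Tek alone higher, beside 2.13% and 1.04% of all tested genes. Tek lay near the floor, with 11, 15 and 16 counts against 0 in each pcDNA library. Neither Flt1 nor Ptprb was called. Flt1 had 1650, 1356 and 1347 counts against 1660, 1771 and 1684, and Ptprb 956, 1174 and 890 against 747, 785 and 749.

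The catenins were close to level. Ctnna1 was at 78.0, 77.9 and 74.7 FPKM against 76.5, 76.1 and 76.5 FPKM (log2 fold change 0.0007, standard error 0.028, edgeR adjusted p 0.995). Ctnnd1, which codes for p120-catenin and holds cadherins at the membrane, was at 42.5, 41.5 and 39.0 FPKM against 43.0, 44.4 and 43.3 FPKM (log2 fold change -0.10, standard error 0.035, adjusted p 0.213), all Hnf3a libraries below all pcDNA libraries. The kidney cadherins Cdh6 and Cdh16, at 10.4 and 2.61 FPKM on average, had log2 fold changes of 0.09 and 0.15 (adjusted p 0.465 and 0.529), and placental cadherin, Cdh3, at 19.4 FPKM, one of 0.04 (adjusted p 0.853).

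None of the 11 desmosome genes tested passed the threshold in edgeR's test. At an unadjusted p under 0.05 there were 2, and DESeq2 called none. Desmoplakin, Dsp, which ties the plaque to keratin, was at 10.3, 9.44 and 8.90 FPKM in the Hnf3a libraries and 8.39, 8.496 and 9.07 FPKM in the pcDNA libraries, with overlap between Hnf3a replicate 3 and pcDNA replicate 3 (log2 fold change 0.13, standard error 0.051, edgeR adjusted p 0.253). Jup was at 37.8, 36.8 and 34.3 FPKM against 35.1, 34.3 and 37.2 FPKM (log2 fold change 0.02, standard error 0.041, adjusted p 0.90). Dsg2 was at 28.6, 29.4 and 26.9 FPKM against 27.3, 28.7 and 27.0 FPKM (log2 fold change 0.03, standard error 0.038, adjusted p 0.869), and Pkp4, a plakophilin found at several junctions, at 26.1, 24.6 and 26.3 FPKM against 24.4, 25.3 and 26.1 FPKM (log2 fold change 0.01, standard error 0.038, adjusted p 0.95).

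Pkp1, a plakophilin of stratified epithelia, had groups that did not overlap, at 8.54, 7.64 and 7.79 FPKM against 7.06, 7.10 and 6.99 FPKM (log2 fold change 0.17, standard error 0.053, edgeR adjusted p 0.121). It passed the threshold only in the fit without Hnf3a replicates 2 and 3. That fit called 4 junction genes, Cldn1, Cldn7 and Cdh5 lower and Pkp1 higher, so that 3 of the 6 calls held without the libraries that carry transcripts of other cell types. The log2 fold changes were then -0.26 for Cldn1, -0.23 for Cldn7 and -1.27 for Cdh5 (edgeR adjusted p 0.00887, 0.0309 and 0.0357). The fold changes of the 3 genes that lost their call stayed near those of the full fit, at -0.61 against -0.67 for Cldn23, -0.12 against -0.14 for Tjp1 and 0.27 against 0.26 for Cdh2. In this fit the lone Hnf3a library is taken to vary like the pcDNA libraries.

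**Figure D4:**
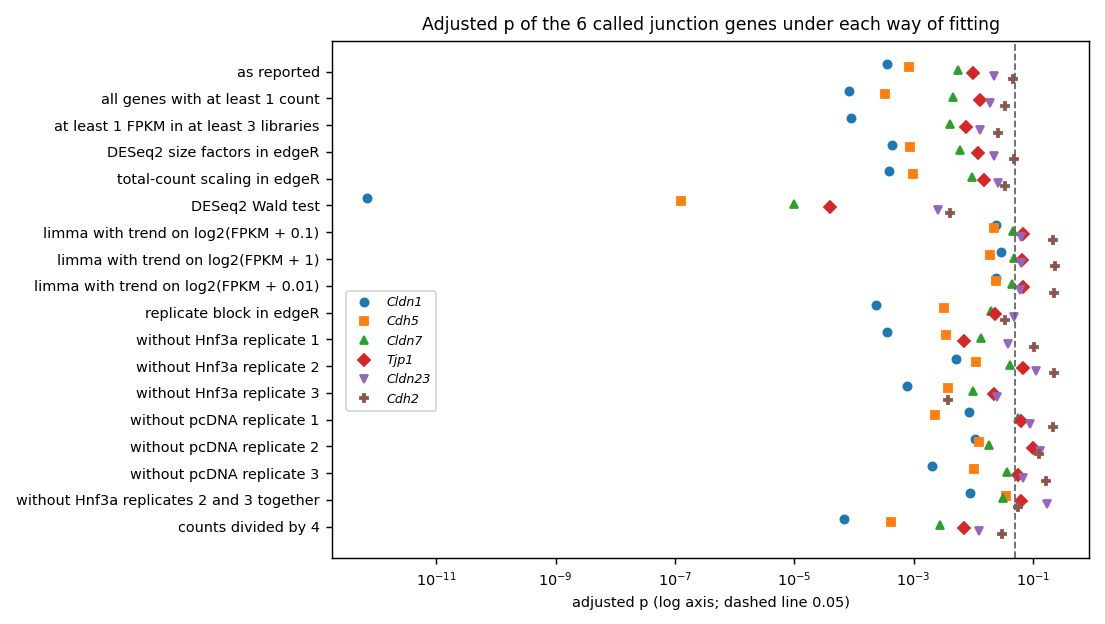
Adjusted p (log axis, dashed line at 0.05) of the 6 junction genes called, under the reported fit and each alternative. Cldn1 and Cdh5 stay left of the line in every fit shown for them, Cldn7 in all but 1, and Tjp1, Cldn23 and Cdh2 cross it when most single libraries are left out and in the 3 limma fits.

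Partners that sit beside these genes at junctions were counted from a separate list of nectins, junctional adhesion molecules, polarity proteins and plaque proteins. Of 38 of them in the table, 36 were tested and 2 fell (2.13% of all tested genes were called lower), with none higher and a median log2 fold change of -0.0006. One of them, Nectin2, an immunoglobulin-like adhesion protein of adherens junctions, was at 56.7, 52.6 and 54.5 FPKM against 63.5, 59.5 and 63.3 FPKM and fell by 12.6% (log2 fold change -0.19, standard error 0.039, adjusted p 0.0135). Its call held in 10 of 17 alternatives and was lost without Hnf3a replicate 2 (adjusted p 0.124), pcDNA replicate 1 (0.113) or pcDNA replicate 3 (0.091), and without Hnf3a replicates 2 and 3 together (0.23, with a log2 fold change of -0.13).

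Of 19 regulators of junction genes tested, 1 rose and none fell, beside 1.04% of all tested genes that were called higher. Ovol2, a zinc finger repressor that keeps cells epithelial, had 256, 265 and 231 counts in the Hnf3a libraries against 128, 94 and 170 in the pcDNA libraries. Its log2 fold change was 0.85 (standard error 0.2, edgeR adjusted p 0.037). The call was fragile: it held in 8 of 17 alternatives and ended when any library but pcDNA replicate 3 was left out (adjusted p between 0.0739 and 0.15), or when Hnf3a replicates 2 and 3 were left out together (0.196, with a log2 fold change of 0.94). The repressors of Cdh1 were sparse: Snai1 had between 30 and 59 counts (log2 fold change 0.13, adjusted p 0.931) and Snai2 at most 3 counts. Zeb1 had 23, 63 and 39 counts in the Hnf3a libraries against 45, 22 and 11 in the pcDNA libraries, with overlap (edgeR adjusted p 0.74). Zeb2 had 45, 79 and 79 counts against 39, 32 and 37 (adjusted p 0.249). Its 79 counts were in Hnf3a replicates 2 and 3, the libraries with transcripts of other cell types. These repressors were looked up after their values had been seen.

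None of 11 gap junction genes differed in edgeR's test, with none at an unadjusted p under 0.05 and none called by DESeq2. Of 68 protocadherins and other members of the cadherin superfamily, 31 were tested and 1 was lower (2.13% of all tested genes were called lower). The lower gene was Pcdhga5, with 0 counts in every Hnf3a library and 17, 13 and 25 in the pcDNA libraries (edgeR adjusted p 0.00843). The protocadherin gamma genes share exons, so the assignment of these few counts is uncertain, and the call was kept in 6 of the 14 alternatives in which the gene was tested. It was lost without Hnf3a replicate 2 (adjusted p 0.0613), without any 1 of the pcDNA libraries (0.0743, 0.0558 and 0.0917), and without Hnf3a replicates 2 and 3 together (0.135).

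The upstream sequences of Cldn1 and Cldn7, the abundant claudins that fell, are shown because both moved the same way and the transfected factor binds DNA. They are the 250 bases before the first RefSeq start (GRCm38.p6), written 5′ to 3′ on the strand of the gene, at chr16:26371840-26372089 (minus) for Cldn1 and chr11:69964529-69964778 (plus) for Cldn7.
Cldn1: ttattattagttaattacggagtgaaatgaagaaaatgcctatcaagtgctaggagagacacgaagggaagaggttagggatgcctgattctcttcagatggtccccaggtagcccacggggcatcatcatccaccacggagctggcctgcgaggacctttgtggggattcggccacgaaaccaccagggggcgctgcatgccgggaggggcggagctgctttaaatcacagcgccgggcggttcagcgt
Cldn7: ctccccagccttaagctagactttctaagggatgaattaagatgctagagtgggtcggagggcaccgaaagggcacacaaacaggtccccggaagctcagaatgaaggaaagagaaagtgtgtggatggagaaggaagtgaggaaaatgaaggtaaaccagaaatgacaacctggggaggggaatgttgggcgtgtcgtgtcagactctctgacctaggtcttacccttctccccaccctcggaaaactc
Both strands were searched for the forkhead letters TGTTTAC or TGTTTGC, for their variants TATTTAC or TATTTGC, and for the E-box CACCTG read by Snail and Zeb proteins, and a match would be printed in capitals. Neither sequence holds any of them. Across 32851 upstream sequences of the same length, 11.9% held a forkhead match and 17.2% the E-box. Of the 35 junction genes with such a sequence, 3 held a forkhead match and 6 the E-box. The absence of a match says only that these letters are not in these windows.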

How the data were processed

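RNA of TKPTS cells (3 Hnf3a and 3 pcDNA libraries) was sequenced from both ends after poly(A) selection and strand marking. The authors deposited a table of estimated counts and FPKM values per gene. Submitters' processing notes name cutadapt 1.9, HISAT2 2.0.4, UMI-tools, StringTie 1.3.4d and mm10. Roles, annotation and strand use in counting are not given in the sources used here. No rounding was needed, as the deposited estimated counts were whole. In every library more genes had 4 counts than 3 or 5, hence the floor.

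Groups and replicate numbers came from the sample labels. Genes were filtered with filterByExpr, scaled by TMM and tested two-sided with edgeR 4.0.16 (robust glmQLFit, glmQLFTest; R 4.3.3) over all 17824 genes kept, with Benjamini-Hochberg adjustment and a threshold of 0.05. Standard errors are the absolute log2 fold change over the square root of F. Percent changes come from the fitted fold changes. The procedure was tested on simulated data in which 200 of 17824 genes changed by 1 on the log2 scale. There edgeR recovered 143 of the 200 with 14 false calls, DESeq2 148 with 29 and limma 145 with 16. Smaller changes were not simulated. Levels were compared between genes in the deposited FPKM, with counts divided by the longest annotated transcript as the alternative. Coordinates are the table's, and overlapping genes are those of GENCODE vM21. The tables of sequences held no proteins, so none are shown.

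The members and all lists were chosen with earlier results of these data known. Values in full were given for called genes, Cdh1, Cdh2, Ocln, Tjp1, Epcam, Dsp, Jup, the 3 most abundant genes of each junction type, genes above the floor in 1 group alone and called genes of the related lists. Some results that this rule covers are not reported here. Other genes were named after their values were seen. Alternatives were other filters (at least 1 count; at least 1 FPKM in 3 libraries), DESeq2 1.42.0 (size factors, Wald test), total-count scaling, limma 3.58.1 with trend on log2(FPKM + 0.1), with 1 or 0.01 in place of 0.1, a replicate block, each library left out, and counts divided by 4. Leaving out Hnf3a replicates 2 and 3 together was added after seeing the data. The pseudocount shrinks the fold changes of low genes in the limma fits. The Cdh2 to Cdh1 ratio was tested by exact permutation. Marker lists of red blood cells, neural and glial cells, stratified epithelium, liver and other nephron segments were also read: in the deposited table they summed to 0.0614 to 1.52, 52.4 to 62.8, 20.6 to 29.7, 10.7 to 24.8 and 26.9 to 30.9 CPM. Hnf3a replicates 2 and 3 had the highest sums for stratified epithelium (29.7 and 28.4 CPM) and for neural and glial cells (62.8 and 61.1 CPM). For stratified epithelium, Hnf3a replicate 1 (25.9 CPM) was also above every pcDNA library (23.7, 20.6 and 22.9 CPM). Krt6a, the marker with the most counts there, had 1124, 1195 and 1112 counts in the Hnf3a libraries against 812, 811 and 845.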

Additional observations from a re-analysis of the deposited data

How the results depend on the processing

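Of the 6 junction genes called, 3 passed in each of the 3 limma fits (Cldn1, Cldn7 and Cdh5, with 3 lower and 0 higher), and 2 to 6 passed when single libraries were left out (2 to 5 lower, 0 to 1 higher). Without Hnf3a replicate 2, pcDNA replicate 2 or pcDNA replicate 3 the count was 3, and without pcDNA replicate 1 it was 2. Without Hnf3a replicate 1 it was 6, with Dsc3 in the place of Cdh2. Without Hnf3a replicates 2 and 3 together 3 were lower and 1 higher. The filter at 1 FPKM left Cdh5 untested. Calls among junction partners numbered 4 with DESeq2, 1 in each limma fit and 1 to 3 with single libraries left out. The single regulator call fell to 0 in each limma fit, 0 to 1 with single libraries left out and 0 without both Hnf3a libraries. The single protocadherin call became 0 with the 1 FPKM filter, in each limma fit and with counts divided by 4, 2 with DESeq2, and 0 to 3 with single libraries left out. The causes of these changes were not tested.

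Values near 0 changed sign when single libraries were left out: Ctnna1 between -0.0145 and 0.0226 on the log2 scale, Jup between -0.0121 and 0.0625, Ocln between -0.0373 and 0.009, and Pkp4 between -0.011 and 0.0462. Ocln was at 0.0284 without Hnf3a replicates 2 and 3. Over all genes, limma called between 231 and 245, DESeq2 824, and the fits without 1 library between 263 and 643.

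Same-numbered samples did not deviate together (r of -0.0085, -0.0072 and -0.0017). The labels do not say whether they were prepared together, and these values cannot tell. With the replicate block, 463 genes were called over all (138 higher, 325 lower), and among junction genes the same 6. The Cdh2 to Cdh1 log2 ratio differed by 0.19 within pairs, where the smallest p possible is 0.25. Depth limits the sparse genes: the 10 tested junction genes with a mean below 50 counts had log2 standard errors from 0.403 to 0.885.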
